A study of Mus musculus with 4 samples.

Results

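The genes described here are 9 neutrophil granule and S100 genes, Ngp, Camp, Ltf, Ly6g, S100a8, S100a9, Retnlg, Elane and Mpo, out of 31054 genes in the matrices. They were chosen by name, with earlier results of the same comparison in view, so their own values are given as a description and carry no test. The mice were male C57BL/6, 19 months old when treatment began, and received BPTES, a small-molecule inhibitor of the glutaminase GLS1, or its vehicle DMSO for 1 month. Each library is 1 lung sample in which 20000 CD45-negative and 9000 CD45-positive sorted cells from the same tissue had been recombined, so the ratio of blood-derived to other cells was set by the sort. There were 2 libraries per group, called BPTES 1, BPTES 2, DMSO 1 and DMSO 2, and 4 values in a row are always given in that order. The labels do not say whether 1 library is 1 mouse.

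Neutrophils make their granules in waves as they mature in the bone marrow. Primary granules come first and carry myeloperoxidase (Mpo) and neutrophil elastase (Elane). Secondary granules follow and carry lactoferrin (Ltf), the cathelicidin peptide (Camp) and neutrophilic granule protein (Ngp). Their transcripts are largely switched off before a neutrophil enters the blood, so that a cell with many of them is commonly read as immature. S100a8 and S100a9 encode the subunits of calprotectin, a calcium- and zinc-binding protein that fills the cytosol of neutrophils at every later stage and acts as an alarm signal once released. Ly6g is the surface protein used to identify mouse neutrophils, and Retnlg encodes a resistin-like secreted protein of mature neutrophils.

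In the mouse genome build GRCm38 the 9 genes lie on 6 chromosomes. S100a8 (chr3:90668978-90670035, forward strand) and S100a9 (chr3:90692632-90695721, reverse strand) are 22.6 kb apart with 0 protein-coding genes between them. Camp (chr9:109847379-109849617, reverse strand), Ngp (chr9:110419747-110423012, forward) and Ltf (chr9:111019271-111042767, forward) share a stretch of chromosome 9. Camp and Ltf are 1170 kb apart, with 29 protein-coding genes between them. Ly6g lies at chr15:75155240-75159126, Retnlg at chr16:48872621-48874496, Elane at chr10:79886247-79888215 and Mpo at chr11:87793581-87804413, all on the forward strand.

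The stretches just upstream of the 3 secondary granule genes and the 2 calprotectin genes are shown because these genes were counted together in the cells described below. They come from RefSeq, build GRCm38.p6, and are written 5′ to 3′ on the gene's own strand. Each is taken from the 250 bases before the RefSeq start and stops where the annotated gene begins. Where the annotated gene begins before the RefSeq start, the bases nearest the RefSeq start are left out. Capitals mark matches, on either strand, to TTGCNNAA, a short form of the C/EBP motif, or to GAGGAAG, a short form of the PU.1 motif.
Ngp, chr9:110419558-110419746: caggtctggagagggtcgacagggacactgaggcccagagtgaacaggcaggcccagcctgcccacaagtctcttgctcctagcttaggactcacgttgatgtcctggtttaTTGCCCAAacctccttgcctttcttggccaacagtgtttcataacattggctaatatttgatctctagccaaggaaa
Camp, chr9:109849618-109849706: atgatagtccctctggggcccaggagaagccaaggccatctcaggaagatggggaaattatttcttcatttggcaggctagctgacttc
Ltf, chr9:111019042-111019270: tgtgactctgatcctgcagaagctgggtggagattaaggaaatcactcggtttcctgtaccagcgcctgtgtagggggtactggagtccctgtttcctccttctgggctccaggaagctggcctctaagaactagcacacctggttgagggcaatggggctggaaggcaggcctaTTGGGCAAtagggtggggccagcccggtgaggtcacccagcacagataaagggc
S100a8, chr3:90668821-90668977: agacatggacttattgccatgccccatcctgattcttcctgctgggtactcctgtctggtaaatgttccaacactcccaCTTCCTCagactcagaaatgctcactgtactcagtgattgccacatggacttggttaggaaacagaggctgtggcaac
S100a9, chr3:90695722-90695971: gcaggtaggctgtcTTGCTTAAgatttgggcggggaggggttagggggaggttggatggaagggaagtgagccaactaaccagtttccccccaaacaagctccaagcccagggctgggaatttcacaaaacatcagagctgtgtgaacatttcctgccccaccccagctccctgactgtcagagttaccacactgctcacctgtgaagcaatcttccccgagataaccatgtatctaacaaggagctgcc
TTGCNNAA occurred in 9.56% and GAGGAAG in 10.6% of 32851 RefSeq promoter windows of 250 bases. The stretches shown are 189 (Ngp), 89 (Camp), 229 (Ltf), 157 (S100a8) and 250 (S100a9) bases long, so most are shorter than those windows. The stretches of Ngp, Ltf and S100a9 held the first of these and that of S100a8 the second, and the Camp stretch held neither. In the bases left out, Ngp had another TTGCNNAA match, at positions -11 to -4 from the RefSeq start. A match is a run of letters and not evidence of binding.

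The matrices held 16440 to 21986 barcodes and 260346570 to 342107092 UMIs (unique molecular identifiers, counted transcripts) per library. After filtering, 14407 to 18860 cells remained, of which 28.2% to 30.8% lay in CD45-positive clusters. Pairs of libraries shared 75 to 121 barcode sequences. A single cluster of 2191 cells was called neutrophil-like: all 8 neutrophil markers (Csf3r, Cxcr2, Il1r2, Mmp9, Trem1, Hdc, Clec4d, G0s2) were detected in at least 10% of its cells, the lowest in 96.3%. The 9 genes themselves were kept out of the clustering, but not out of the doublet scoring before it. Of classical monocyte markers, 1 of 7 was detected in at least 10% of these cells, and the summed level of that list was 57.6, 77.1, 85.0 and 103 CPM (UMIs scaled to the same total in each library or class). Non-classical monocyte markers (4 of 7 detected) summed to 1023, 993, 851 and 934 CPM. Alveolar type 2 markers (3 of 7) summed to 516, 353, 128 and 293 CPM. The non-classical monocyte and alveolar type 2 lists were higher in both BPTES libraries, as were 41.8% of 9023 single genes. The classical monocyte list was lower in both, as were 10.4% of single genes. General capillary endothelial markers (4 of 7) were lower, at 171, 193, 224 and 208 CPM. Secretory airway markers summed to 1560 CPM in BPTES 1 against 33.3 to 122 in the other libraries. The part of all these lists in the results below was not tested.

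Neutrophil-like cells numbered 497, 499, 626 and 569, with median depths of 8664, 8854, 9553 and 9034 UMIs. They were 11.7%, 10.6%, 14.4% and 9.81% of CD45-positive cells. DMSO libraries held the highest and the lowest share. In an edgeR quasi-likelihood test over 11 CD45-positive classes, the share differed by -0.11 on the log2 scale (SE 0.30, Benjamini-Hochberg adjusted p = 0.758), within the spread between libraries, and the sign turned to 0.19 without DMSO 1. A second cluster, cluster 28, held 133, 198, 137 and 186 cells of high depth (median 27257 UMIs). All 8 neutrophil, all 7 classical monocyte and all 7 non-classical monocyte markers were detected in at least 10% of its cells. It was left unnamed and outside the neutrophil-like class.

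Over whole libraries the members differed widely in abundance. S100a9 was counted 244548, 302712, 483838 and 476983 times and S100a8 173958, 228940, 343816 and 327103 times. Retnlg followed with 28430, 37877, 42490 and 47439 UMIs. Ngp had 591, 2255, 2057 and 1013 UMIs, Camp 273, 1170, 876 and 180, Ltf 146, 784, 742 and 205, and Ly6g 185, 330, 792 and 591. Mpo had 124, 99, 107 and 88 UMIs, and Elane only 8, 14, 38 and 27. Counts of this kind, taken at transcript ends, do not scale with transcript length, so the order of genes is an order of counted transcripts.

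In CPM of the library, 5 of the 9 members were lower in both BPTES libraries than in both DMSO libraries: Ly6g, S100a8, S100a9, Retnlg and Elane. The same non-overlap in that direction held for 35.9% of 24041 genes with at least 10 UMIs, and the members were chosen on this contrast, so nothing is read from the count. S100a8 stood at 601, 725, 1321 and 956 CPM, a log2 difference of -0.78. In such totals, fewer cells of a type and less RNA per cell cannot be told apart. S100a9 stood at 845, 959, 1858 and 1394, a difference of -0.85. Ly6g, at 0.64, 1.05, 3.04 and 1.73 CPM, differed by -1.502. Ngp, Camp, Ltf and Mpo overlapped between the groups, with log2 differences of -0.24, 0.26, -0.21 and 0.15.

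The 9 genes fell into 3 sets by the cells that held them. S100a8, S100a9, Retnlg and Ly6g came mainly from neutrophil-like cells: for S100a8 these cells held 71.8%, 63.3%, 73.9% and 66.2% of a library's UMIs, cluster 28 held 11.5% to 23.1%, and barcodes removed as doublets 11.99% to 14.8%. Most Ngp and Camp UMIs came from a few barcodes in each library, and so did most Ltf UMIs in BPTES 2 and DMSO 1 but not in BPTES 1 and DMSO 2. Elane and Mpo came mainly from other cells.

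**Figure D1:**
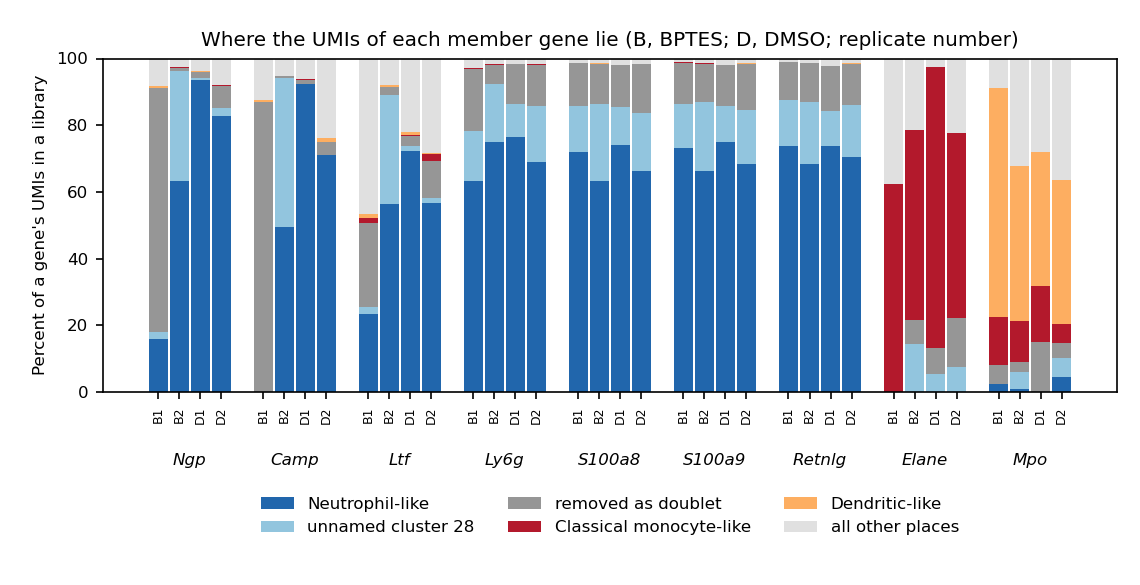
Share of each member's UMIs (vertical axis, percent of the gene's UMIs in a library) by cell class, for BPTES 1 and 2 and DMSO 1 and 2. S100a8, S100a9, Retnlg and Ly6g lie mostly in neutrophil-like cells in every library, Elane mostly in classical monocyte-like cells, and dendritic-like cells hold the largest share of Mpo, while the place of Ngp, Camp and Ltf changes from library to library.

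Elane had 0 UMIs in the neutrophil-like cells of every library, which allows at most 3 counts per library, and Mpo had 3, 1, 0 and 4 there. Elane was instead found mainly in classical monocyte-like cells, which held 5, 8, 32 and 15 UMIs, or 55.6% to 84.2% of each library's total. In DMSO 1, 26 of the 38 Elane UMIs sat in 1 classical monocyte-like barcode of 72286 UMIs, so the higher DMSO level of Elane rests in part on that barcode. Dendritic-like cells held the largest share of Mpo, 85, 46, 43 and 38 UMIs or 40.2% to 68.5% of each total. By the label these 2 primary granule genes belong with neutrophils, but no neutrophil-like cell with a primary granule programme was detected at this depth. Prtn3, a primary granule protease, had 5, 8, 11 and 4 UMIs in neutrophil-like cells, Ctsg 0, 2, 0 and 0, and Ms4a3, a gene of granulocyte progenitors, 0 in all 4.

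A barcode was called granule-rich if it held at least 20 UMIs of Ngp, Camp and Ltf together. There were 2, 2, 3 and 6 such barcodes in BPTES 1, BPTES 2, DMSO 1 and DMSO 2, 13 of 74057 in all. As a share of barcodes this was 0.0112% (exact 95% binomial interval 0.00136% to 0.0406%), 0.0112% (0.00136% to 0.0405%), 0.0182% (0.00376% to 0.0533%) and 0.0273% (0.01002% to 0.0594%). These intervals cover counting error only, and all 4 overlap. The 13 barcodes held 73.0%, 91.9%, 88.1% and 64.5% of all UMIs of the 3 genes in their libraries. Taken singly, they held 80.5%, 93.7%, 87.9% and 68.1% of Ngp and 84.98%, 94.02%, 92.01% and 68.3% of Camp. For Ltf the shares were 19.9%, 83.5%, 84.2% and 43.4%, and in BPTES 1 its 146 UMIs were spread over 99 barcodes with at most 29 in any of them.

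Only 7 of the 13 held Ngp and Camp together, 1, 2, 2 and 2 per library. The richest neutrophil-like barcode, in BPTES 2, held 1387 Ngp, 580 Camp and 412 Ltf UMIs among 26868. In DMSO 1, 2 neutrophil-like barcodes held 1358, 485 and 260 UMIs of the 3 genes among 46761, and 450, 321 and 257 among 19082. In DMSO 2, 2 held 456, 98 and 67 among 19640, and 123, 25 and 21 among 24966. Granule genes thus made up 8.85%, 4.50%, 5.39%, 3.16% and 0.68% of the UMIs in these 5 barcodes. The remaining 2 of the 7 lay outside the neutrophil-like class. That of BPTES 1, with 424 Ngp, 232 Camp and 29 Ltf UMIs among 30986, had been removed as a doublet and carried 207 UMIs of general capillary endothelial markers. The second of BPTES 2, with 725, 520 and 243 among 78747, lay in cluster 28 and carried 359 UMIs of classical monocyte markers. Of these, 123 were Chil3, which is also a gene of secondary granules.

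Of the other 6 barcodes, 5 held Ngp alone or nearly so, 24 to 52 UMIs with no Camp. One was in BPTES 1 and 4 were in DMSO 2, and 1 of those 4 had been removed as a doublet. The last, in DMSO 1, was no neutrophil: it held 108 Ltf UMIs and 0 of Ngp, Camp, S100a8 and S100a9, with 3857 UMIs of Scgb1a1, the secretoglobin of airway club cells, and lay in the secretory airway-like class. Lactoferrin is also a product of secretory epithelium.

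**Figure D2:**
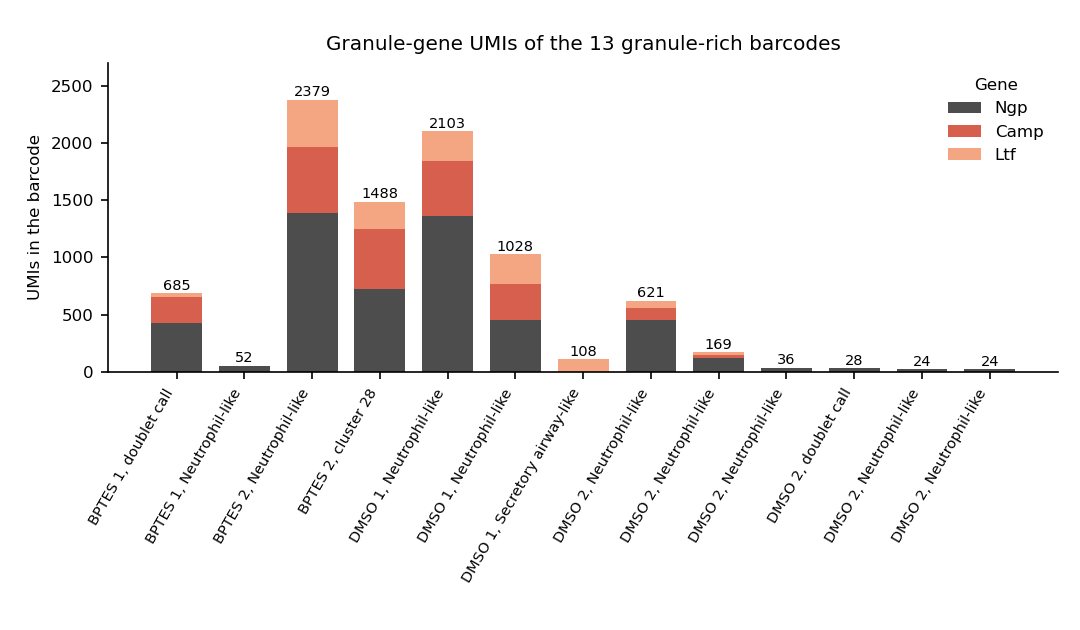
UMIs of Ngp, Camp and Ltf (stacked bars, vertical axis, linear from 0) in each of the 13 granule-rich barcodes, named by library and by the class the barcode fell in. 7 bars hold Camp, 5 hold Ngp with at most 1 UMI of Ltf and no Camp, and 1 secretory airway-like bar holds Ltf alone.

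The 13 barcodes held 0 UMIs of Elane, Mpo, Prtn3, Ctsg, Ms4a3 and Fcnb, and at most 1 UMI each of the proliferation genes Mki67 and Top2a. Cebpe, the transcription factor of secondary granule genes, had 0 to 2 UMIs. The 12 barcodes with Ngp also held 428 to 3758 UMIs of S100a8. In the 9 neutrophil-like ones, genes outside the member list that stood highest against the 2182 other neutrophil-like cells were, with 1 CPM added to each level, Chil3 (155-fold), Adpgk (56.5-fold), Itgb2l (48.3-fold), Olfm4 (30.05-fold), 1700047M11Rik (29.6-fold), Cybb (24.8-fold), Cd177 (24.6-fold), Cd55 (20.7-fold), Aoah (19.96-fold) and Serpinb1a (18.5-fold). Chil3, Itgb2l, Olfm4, Cybb and Cd177 belong to the secondary granule programme. All 86 Olfm4 UMIs were in 1 barcode and the Chil3 UMIs in 3. Lcn2, lipocalin 2 of the same granules, was 10.0-fold and the collagenase Mmp8 8.46-fold higher.

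Outside granule-rich barcodes the granule genes were sparse, and single UMIs of them were also counted in other classes. In alveolar fibroblast-like cells Camp had 17, 27, 18 and 25 UMIs, spread over 16, 23, 17 and 23 cells with at most 3 in any cell, a level of 0.40, 0.61, 0.39 and 0.48 CPM that overlapped between groups. In general capillary endothelial-like cells Camp stood at 0.094, 0.20, 0.19 and 0.073 CPM. Ltf had 33, 8, 21 and 15 UMIs in cluster 2, an unnamed cluster led by Cxcl12, Efnb2 and Edn1, and 12, 20, 11 and 19 in general capillary endothelial-like cells. In CPM this was 1.51, 0.42, 1.27 and 0.65 in cluster 2 and 0.38, 0.66, 0.43 and 0.46 in the capillary cells. The source of these UMIs, free RNA included, was not tested.

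Within neutrophil-like cells, S100a8 and S100a9 together took a median of 6.40%, 6.89%, 9.34% and 9.55% of a cell's UMIs. In CPM, the median gene of 9023 tested was 0.17 log2 units higher in BPTES, and with TMM normalisation, which scales to the bulk of genes, it was 0.01. The differences given from here on for neutrophil-like cells are those of the TMM fit, and the levels are CPM. The estimate of each of the 7 members in the fit was below 0 on both scales and with DESeq2 size factors, which move all genes nearly alike. Over the other settings of the fit, S100a8, S100a9, Ly6g and Retnlg stayed below 0, and Camp, Ltf and Ngp did not. In CPM, Retnlg was above 0 without DMSO 2, at 0.05.

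S100a8 stood at 28468, 30192, 39871 and 40198 CPM and S100a9 at 40768, 41832, 56863 and 60492. Both BPTES libraries were below both DMSO libraries for either gene, as they were for 10.4% of the 9023 genes tested. The TMM log2 differences were -0.61 (SE 0.05) for S100a8 and -0.67 (SE 0.05) for S100a9. Nearly every neutrophil-like cell held both genes: S100a8 was found in 99.4% to 99.6% of cells in each library. Cells with more S100a8 had more S100a9, with Spearman's rho over cells of 0.93, 0.91, 0.91 and 0.92, a description over cells that share library and depth. The S100a9 to S100a8 ratio was 1.43, 1.39, 1.43 and 1.505.

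Ly6g stood at 26.7, 51.5, 94.9 and 75.7 CPM, a TMM log2 difference of -1.29 (SE 0.24). A Ly6g UMI was found in 11.9%, 17.6%, 33.4% and 25.8% of neutrophil-like cells. After each cell was thinned to 3000 UMIs these shares were 5.46%, 7.32%, 17.2% and 13.01%, in the same order. One barcode supplied 63 of the 247 Ly6g UMIs of BPTES 2, the granule-rich barcode with 1387 Ngp UMIs. Without granule-rich cells the levels were 25.2, 38.6, 91.8 and 69.3. The DMSO libraries were higher with and without those cells.

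Retnlg stood at 4779, 5401, 4910 and 6208 CPM, a TMM log2 difference of -0.29. The groups overlapped, with BPTES 2 above DMSO 1. Its share of cells with a UMI, 93.0% to 95.4%, was also similar across libraries.

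Ngp stood at 21.4, 297, 302 and 155 CPM in neutrophil-like cells, and 1 barcode held 55.3%, 97.2%, 70.5% and 54.5% of these UMIs. The groups overlapped. With granule-rich cells left out, the levels fell to 9.60, 8.38, 18.7 and 32.9, and both DMSO libraries were then above both BPTES libraries, a log2 difference of -1.52 in CPM. With all cells kept, 10.4% of genes tested showed that pattern, and the cells left out were chosen on the UMIs of Ngp itself, with Camp and Ltf. These are 42, 40, 118 and 175 UMIs. A Ngp UMI was found in 3.62%, 5.01%, 8.63% and 12.3% of neutrophil-like cells, and after thinning to 3000 UMIs in 2.10%, 1.67%, 4.01% and 6.69%. Leaving out 1 library at a time moved the Ngp difference with all cells from 0.21 to -3.59. It was -3.59 without BPTES 2, and above 0 without BPTES 1 only.

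Camp stood at 0, 121, 127 and 23.8 CPM and was carried by 0, 1, 3 and 7 neutrophil-like cells. Its TMM log2 difference, -0.47, turned to 0.22 with the lower barcode filter, 0.14 with doublets kept, 0.11 with a mitochondrial limit of 5%, 0.18 at resolution 2 and 0.18 with cluster 28 added. It was 0.50 without BPTES 1, 1.19 without DMSO 1 and -1.22 without DMSO 2. Without BPTES 2 the remaining BPTES library held 0 Camp UMIs, so the fitted -11.7 depends on the prior count and is no bound. No direction is given for Camp. Ltf stood at 7.75, 92.1, 84.2 and 21.5, and without granule-rich cells at 7.77, 6.29, 3.17 and 5.08. Its log2 difference in CPM was then 0.77, opposite in sign to that of Ngp, on 34, 30, 20 and 27 UMIs. Both BPTES libraries were then above both DMSO libraries. With all cells kept, 41.8% of genes tested showed that pattern, and the cells left out were chosen in part on Ltf UMIs. Leaving out 1 library moved the TMM difference of Ltf with all cells from -2.96 (without BPTES 2) to 1.06 (without DMSO 1). It was -0.24 with all libraries, 0.62 without BPTES 1, 0.45 with the 5% limit, 0.15 with the lower barcode filter, 0.12 at resolution 2 and 0.11 with cluster 28 added.

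**Figure D3:**
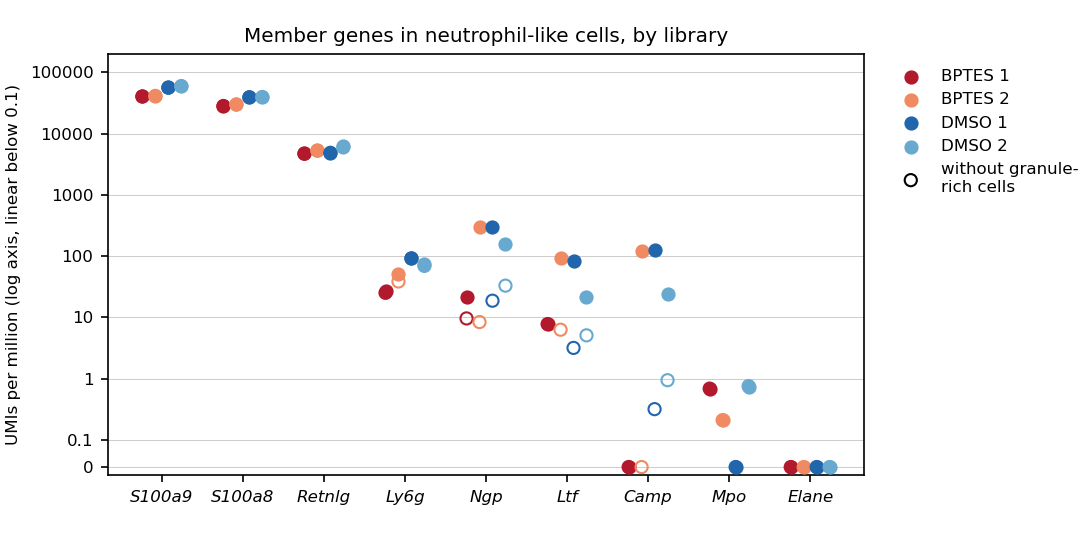
Level of each member gene in neutrophil-like cells (vertical axis, CPM, logarithmic above 0.1) in BPTES 1 and 2 and DMSO 1 and 2; open circles leave out granule-rich cells. S100a8, S100a9 and Ly6g are lower in both BPTES libraries, Ngp falls without granule-rich cells in all 4 libraries, Camp and Ltf in all but BPTES 1, and Elane is at 0.

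The other genes of the neutrophil programme were read from the same fit. Their lists were also chosen with earlier results of these data known, so calls and p-values within them are given as a description. In CPM the median gene was 0.17 higher in BPTES, so small TMM differences below 0 can be above 0 there. edgeR's quasi-likelihood test called 166 of 9023 genes at an adjusted p under 0.05, 1.84% of those tested, with 38 higher (0.421%) and 128 lower (1.42%) in BPTES. Of the 9 members, 7 passed the filter on low counts and 3 of these, S100a8, S100a9 and Ly6g, were among the 166; they were chosen on this contrast, so nothing is read from that. Called genes in the lists of other neutrophil genes were all lower in BPTES, 14 in number. They depended on how the class was drawn: of these 14, none was called by edgeR with cluster 28 added, with doublets kept, with clusters at resolution 2 or with the lower barcode filter, and 2 were called with the replicate number as a block.

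Of 16 tested secondary granule genes, 3 fell, 0 rose and 13 did not pass; the median log2 difference was -0.32 against 0.01 for all genes. Lcn2, which binds bacterial siderophores, had 613, 841, 1051 and 1554 CPM and fell by 1.006 on the log2 scale (SE 0.18, edgeR adjusted p = 0.0300). Olfm4, olfactomedin 4 of a neutrophil subset, had 27, 56, 195 and 109 UMIs and fell by 1.67 (SE 0.30, edgeR adjusted p = 0.0301). Of the DMSO UMIs, 86 were in 1 granule-rich barcode, and edgeR also called Olfm4 with granule-rich cells left out. Pglyrp1, a peptidoglycan-binding protein, had 897, 878, 1020 and 1080 CPM and fell by 0.41 (SE 0.07, edgeR adjusted p = 0.0249). In each of these genes both BPTES libraries were below both DMSO libraries in CPM, as in 10.4% of genes tested. They were named because edgeR called them on the same libraries, so this adds no support. Cd177 (-0.80), Itgb2l (-1.30) and Mmp8 (-0.36) did not pass. The estimate was below 0 for 14 of the 16, and above 0 for Cd63 (0.27) and Cybb (0.09), which did not pass.

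Of 12 tertiary granule and secretory vesicle genes, 3 fell and 0 rose, and the TMM estimate was below 0 for all 12 (median -0.31). In CPM not all were lower: Arg2 stood at 829, 868, 796 and 810, higher in both BPTES libraries. The 3 called genes were lower in both BPTES libraries in CPM. Cd14, the lipopolysaccharide co-receptor, had 1826, 2014, 2583 and 2589 CPM and fell by 0.60 (SE 0.07, edgeR adjusted p = 0.0075). Mgam fell by 0.73 and Adam8, a sheddase, by 0.40. Of 5 tested primary granule and progenitor genes, edgeR called 0 in either direction, with 0 at an unadjusted p under 0.05 and 0 called by DESeq2.

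Among 16 genes of inflammatory output, 5 fell and 0 rose (median -0.28). Cxcl2, a neutrophil-attracting chemokine, had 6142, 5946, 8230 and 7748 CPM and fell by 0.57 (SE 0.06, edgeR adjusted p = 0.0030). G0s2, a lipase inhibitor, fell by 0.56, the chemokine gene Ccl4 by 1.18 and the cytokine gene Il1b by 0.36. Of 15 mature surface and trafficking genes 1 fell, Trem1 (by 0.41), an amplifier of inflammatory signals, and the median of the list was -0.12. edgeR called 0 of 11 maturation and transcription factor genes, with 5 at an unadjusted p under 0.05 and 1 called by DESeq2, and their median was 0.07. Over all genes of this edgeR fit, 1387 of 9023 were at an unadjusted p under 0.05. Of 10 other S100 family genes 1 fell, S100a6, from 4246 and 4584 CPM in DMSO to 3469 and 3668 in BPTES (log2 -0.47, SE 0.07, edgeR adjusted p = 0.0127).

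edgeR called 0 of 8 tested genes for receptors of the member proteins, with 2 at an unadjusted p under 0.05, Tlr4 and Fpr2, and 1 called by DESeq2. The estimates for the calprotectin receptors were -0.29 for Tlr4 and 0.25 for Ager. Of 4 tested proliferation genes 1 fell, Hmgb2 (by 0.44), which codes for a chromatin protein. For cells that could share the gate, 0 of 6 erythroid genes passed the filter on low counts, 1 of 6 mast and basophil genes and 2 of 6 eosinophil genes did, and edgeR called 0 of these 3, with 0 at an unadjusted p under 0.05 and 0 called by DESeq2.

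**Figure D4:**
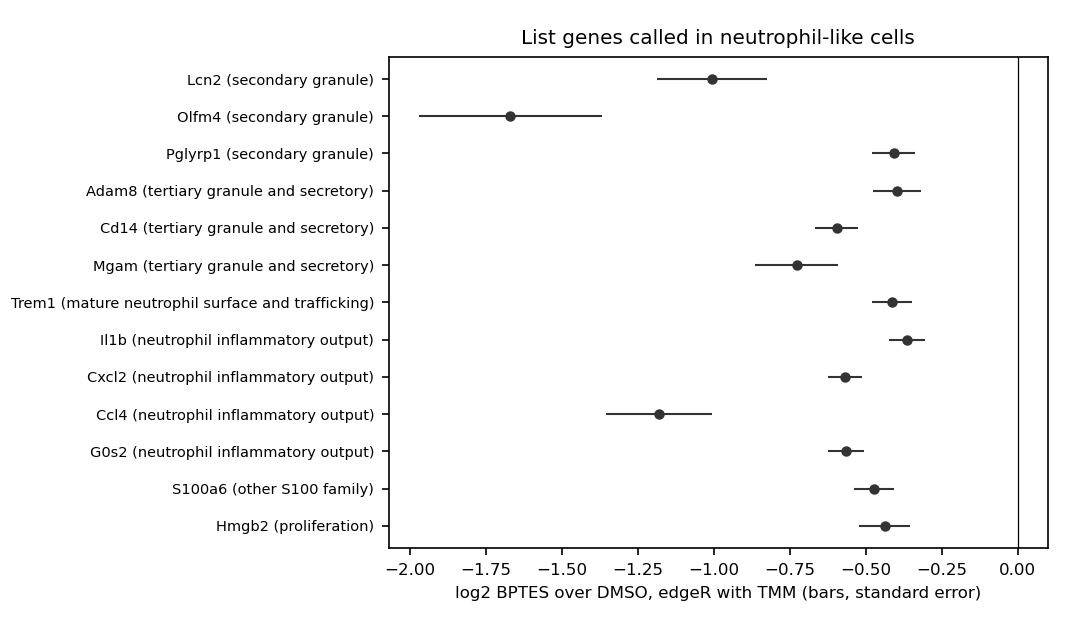
Log2 difference, BPTES over DMSO, from the edgeR fit with TMM in neutrophil-like cells (horizontal axis; bars, standard error) for called genes of the lists, at most 4 per list. All 13 genes shown lie below 0, from -0.36 for Il1b to -1.67 for Olfm4.

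S100a8 and S100a9 were also counted in the other classes, at far lower levels. In CD45-negative cells S100a8 stood at 6.92, 9.60, 15.8 and 13.9 CPM and S100a9 at 10.7, 13.2, 25.004 and 20.4. Beside the level of the gene in the whole library this was 1.15% to 1.45% for S100a8 and 1.27% to 1.46% for S100a9, a narrow range although the library levels themselves differed. A S100a8 UMI was found in 10.2%, 14.97%, 21.6% and 18.1% of CD45-negative cells. All named and unnamed classes outside the neutrophil-like class and cluster 28 together held 1.22% to 1.84% of the S100a8 UMIs of a library.

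In general capillary endothelial-like cells, the most numerous class and one not known to make calprotectin, S100a8 was found in 9.64%, 12.4%, 17.9% and 15.7% of cells, at median depths of 11782 to 13039 UMIs. Thinned to 3000 UMIs per cell, the shares were 2.26%, 3.40%, 5.47% and 4.50%. In 3 of the 4 libraries no such cell held more than 4 S100a8 UMIs, and 1 BPTES 1 cell held 24. The S100a9 to S100a8 ratio was 1.43, 1.42, 1.73 and 1.58, beside the 1.39 to 1.505 of neutrophil-like cells. The source of these UMIs was not tested.

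Of the other named classes, 19 had 50 cells or more in each library. Over these, S100a8 was lower in both BPTES libraries than in both DMSO libraries in 16, and S100a9 in 16, with 0 classes higher and 3 overlapping for each. The median log2 difference was -0.82 for S100a8 and -0.95 for S100a9, near those of the whole libraries. Non-overlap in that direction held for 25.6% of all gene and class pairs tested, and for 19.4% to 36.9% of genes within single classes. Classes share their libraries, so these are not 16 separate observations. edgeR, fitted in each of the 19 classes, called 0.318% of gene and class pairs and 0 of the 59 that were members, 2 to 5 members per class. An unadjusted edgeR p under 0.05 was reached by 33 of the 59. Over all genes of a class the lowest such share was 832 of 11899, in pericyte-like cells. The highest was 3144 of 15010, in general capillary endothelial-like cells. The members were chosen on this contrast, so nothing is read from these counts. Retnlg, much rarer, was lower in 13 of the 19 (median -0.58). Cluster 28, unnamed and rich in S100a8, is not among the 19. Its S100a8 level was 8050 CPM (mean, SD 2175) in BPTES and 9797 (SD 726) in DMSO. The groups overlapped there, with a log2 difference of -0.28.

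**Figure D5:**
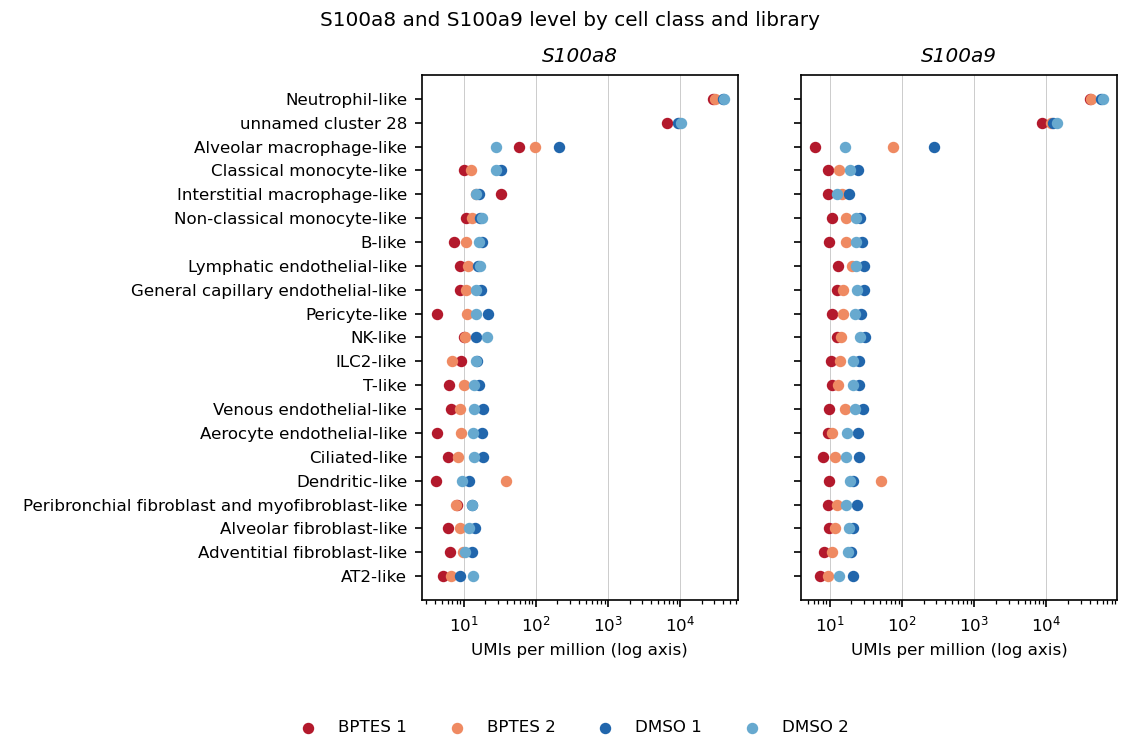
Level of S100a8 and S100a9 (horizontal axes, CPM, log scale) in each class with at least 50 cells per library, one point per library. In most classes both BPTES points lie to the left, at levels far below the 28468 to 40198 CPM of S100a8 in neutrophil-like cells.

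For both genes the 3 classes that overlapped were alveolar macrophage-like, interstitial macrophage-like and dendritic-like cells. In each of them, 1 cell carried over 50% of the S100a8 UMIs of 1 library. In dendritic-like cells S100a8 stood at 4.17, 38.2, 12.03 and 9.51 CPM, and 1 BPTES 2 cell held 260 of 313 UMIs. Without the richest cell of each library the levels were 3.97, 6.48, 11.5 and 8.97, with BPTES again lower. In alveolar macrophage-like cells S100a8 stood at 58.6, 96.5, 209 and 27.7, and 1 DMSO 1 cell held 331 of 381 UMIs. Without the richest cell of each library the levels were 55.5, 59.4, 29.0 and 26.1, higher in both BPTES libraries. With all cells kept, 20.8% of genes tested in this class showed that pattern. S100a9 in the same cells, without the richest, was 5.78, 32.8, 23.2 and 15.6, and the groups overlapped.

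In alveolar macrophage-like cells the balance of the genes differed between libraries. S100a9 was 9.79% of the 2 genes' UMIs in BPTES 1 (exact 95% interval 6.00% to 14.9%, counting error only), 44.2% (40.7% to 47.7%) in BPTES 2, 57.5% (54.2% to 60.7%) in DMSO 1 and 37.2% (30.1% to 44.7%) in DMSO 2. In neutrophil-like cells it was 58.1% to 60.1%, and the DMSO 1 interval includes these values. In DMSO 1 the richest cell for each gene held 331 of 381 S100a8 and 475 of 515 S100a9 UMIs, and without it S100a9 was at 23.2 CPM beside 29.02 for S100a8. In BPTES 2 the richest cell for each gene held 176 of 451 S100a8 and 205 of 357 S100a9 UMIs, and without it the levels were 32.8 CPM for S100a9 beside 59.4 for S100a8. A S100a8 UMI was found in 58.8%, 62.0%, 53.2% and 51.4% of these cells at median depths of 28580 to 39540 UMIs, and in 20.8%, 13.04%, 10.9% and 6.73% after thinning. These thinned shares are above those of general capillary endothelial-like cells in all 4 libraries. They rest on 55 to 115 cells per library, and in DMSO 2 on 6.73% of 104 cells. In interstitial macrophage-like cells 1 BPTES 1 cell held 125 of 236 S100a8 UMIs, and without the richest cell of each library S100a8 still overlapped between the groups, at 15.6, 9.50, 15.3 and 10.2 CPM. For S100a9 the richest cell held 3.92% to 26.8% of the UMIs there, and without it S100a9 was lower in both BPTES libraries. With all cells kept, 23.8% of genes tested in this class showed that pattern. In this class the S100a9 to S100a8 ratio was 0.29, 0.99, 1.12 and 0.84. In classical monocyte-like cells S100a8 stood at 10.2, 12.6, 33.1 and 27.9 CPM, and the ratio was 0.93, 1.07, 0.74 and 0.68, below the neutrophil ratio in all 4 libraries.

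Across 38 clusters with all libraries summed, the genes most like Ngp by Pearson's r of log2 levels, of 19619 compared, were Lhx1 (0.99), BC100530 (0.99), Ly6g (0.99), Prps1l1 (0.99) and Stfa2 (0.98). Those most like S100a8 were S100a9 (0.99), Retnlg (0.98), Cxcr2 (0.98), Stfa2l1 (0.97) and Gm5483 (0.97). Only clusters of at least 50 cells were used, and they share libraries and depth. Both rankings may rest largely on the neutrophil-like cluster and cluster 28, which was not tested. The 10 genes most like Ltf, Elane and Mpo included no other member.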

How the data were processed

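Single-cell libraries were made with the 10x Genomics GEM-X 3' v4 kit, per the labels' protocols. Cell Ranger 8.0.1 and build mm10 are named in the submitters' processing notes. The deposited matrices hold raw UMI counts per gene and barcode. Barcodes with at least 500 genes, 1000 UMIs and at most 10% mitochondrial UMIs were kept, and doublets were scored with simulated doublets and removed. Cells were clustered (2000 variable genes without the 9 members, 40 components, 15 neighbours, Leiden resolution 1, igraph 0.11.9) into 39 clusters, 29 of them named from markers. UMI counts summed per class and library were tested with edgeR 4.0.16 (TMM, filterByExpr, quasi-likelihood, Benjamini-Hochberg) in R 4.3.3. The fit was also run on simulated counts with the same variability for every gene, which cannot show how the calls depend on the class. DESeq2 1.42.0 was an alternative. Named genes are the members, the called genes of each list (at most 4 by smallest p), 5 genes most like Ngp and S100a8, and the 10 leading genes of granule-rich cells; other genes named with values were chosen after their values were seen. The labels do not say that libraries came from separate mice, so p-values measure the spread between these libraries, which may be technical. Members, lists and tests were chosen with earlier results of these data known. Intervals of shares are exact binomial.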

Additional observations from a re-analysis of the deposited data

Results flagged for a closer look

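S100a8 in alveolar macrophage-like cells, with the richest cell of each library left out, was higher in BPTES by 1.06 on the log2 scale, while most other classes were lower. Both BPTES libraries lay above both DMSO libraries there and below them in 17 other classes. With all cells kept, 20.8% of 10887 genes tested in alveolar macrophage-like cells were higher in both BPTES libraries. In interstitial macrophage-like cells, likewise without the richest cell, S100a8 stood at 15.6, 9.50, 15.3 and 10.2 CPM in BPTES 1, BPTES 2, DMSO 1 and DMSO 2, and the groups overlapped. At full depth the share of those cells with a S100a8 UMI overlapped between the groups. After thinning to 3000 UMIs a S100a8 UMI was found in 7.55%, 4.69%, 0% and 3.27% of those cells, higher in both BPTES libraries. The 0 of 77 thinned DMSO 1 cells allows a thinned share of up to 3.896%, for counting error only. This is no limit on the share at full depth. For S100a9 the thinned share of the same cells went the other way, lower in both BPTES libraries. The difference between classes was not tested, and the levels in alveolar macrophage-like cells rest on 62 to 121 cells per library.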

How the results depend on the processing

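The number of genes called in neutrophil-like cells, 166, depended on which cells were in the class. It was 11 with a filter of 200 genes and 500 UMIs, 3 at resolution 2 and 2 with cluster 28 added, an alternative chosen after seeing the data. With doublets kept edgeR called 0, with 1203 genes at an unadjusted p under 0.05 against 1387 in the class as reported. It was 556 with no filter on low counts and 291 with DESeq2. Leaving out 1 library gave 159 to 306 calls, the highest without BPTES 1, and 11 to 14 of the 14 called list genes were called, all lower. Such a fit leaves 1 group with a single library, which is assumed to vary like the other group. The replicate numbers gave no sign of pairing (r = -0.09 between the deviations of libraries numbered 1), and with the replicate number as a block 5 genes were called, all lower. The cause of these changes was not tested. The other 6 settings gave 155 to 235 calls.

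Granule-rich barcodes numbered 20 at a minimum of 10 UMIs, 9 at 50, 8 by a share of 0.5%, 11 among filtered cells and 7 where Camp was required, against 13. The neutrophil-like share difference kept its sign in 13 settings and reversed without DMSO 1 (range without 1 library -0.36 to 0.19). It was -0.09 with the replicate block and -0.45 with TMM scaling over classes. In the settings with all 4 libraries the edgeR adjusted p was 0.468 to 0.883. S100a8 was lower without overlap in 13 of 19 classes (doublets kept) to 19 of 20 (lower barcode filter), and S100a9 in 15 of 19 (doublets kept) to 20 of 21 (members among the variable genes). At resolution 0.5 both were lower in 15 of 17, and without 1 library in 16 to 17 and 16 to 19 of 19. The 5 members lower in whole libraries were 5 under either other denominator.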
